A study of Homo sapiens with 6 samples.

Results

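The integrated stress response genes followed here are ATF4 and 9 genes tied to it, namely ATF5, DDIT3, DDIT4, TRIB3, ASNS, CHAC1, SESN2, CEBPB and PPP1R15A. They were chosen by name, and all 10 were present among the 15651 genes of the deposited table. The 6 RNA-seq libraries came from MDA-MB-231, an established human cell line of triple-negative breast cancer (TNBC). In 3 of them the cells had received DMSO, the solvent control, and in 3 they had received BRL-50481, an inhibitor of the cAMP-degrading phosphodiesterase PDE7A. The treatment protocol gives 50 μM for 72 h, whereas the treatment tag of the same samples gives 5 μM and 48 h. The paper describes the dose and time of these samples as the protocol does. The same cell line and solvent control underlie every comparison, so the results speak for 1 cell line at 1 dose and 1 time.

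Between 30750573 and 33446984 reads per library fell on genes. The DMSO libraries differed from each other more than the BRL-50481 libraries did, with an SD over genes of the log2 deviations from the group mean of 0.0964 to 0.141 per library against 0.0791 to 0.0832. DMSO replicate 1 held the lowest value of its group for 9 of the 10 genes, with a median deviation of -0.107 on the log2 scale, where the median over all genes was -0.0088. Calls of the 10 genes that depend on this library are given with and without it. Some counts over the gene lists below also moved without it and are not all given. The cells expressed VIM, CD44, KRT18, AXL and CAV1, which mark this line, and 5 of 9 markers of leukocytes, endothelium and fibroblasts, including PTPRC and COL3A1, were not listed in the table. Of the receptors that TNBC lacks or does not amplify, ESR1 was not listed, PGR was too low to be tested and ERBB2 was at 1677 and 1914 normalized counts in DMSO and BRL-50481. The other 4 markers summed to 663 to 737 normalized counts in DMSO and 812 to 915 in BRL-50481, most of it PECAM1 and COL1A1. Of these 4, PECAM1 (357 and 498 normalized counts) and CDH5 (1.01 and 9.0) were called higher in BRL-50481, and their part in the results below was not tested. In normalized counts PDE7A itself went from 406 ± 2.06 under DMSO to 298 ± 40.6 under the inhibitor (SD, n = 3 each), which is -0.45 as a log2 fold change (SE 0.10, limma adjusted p = 0.00199).

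In the integrated stress response, one of 4 kinases phosphorylates the translation factor eIF2, which slows protein synthesis in general while a few mRNAs, ATF4 among them, are translated more. The ATF4 protein then binds promoters and enhancers together with C/EBP family partners and induces genes for amino acid supply, redox balance and, under lasting stress, cell death. Several targets act back on the pathway. GADD34, the product of PPP1R15A, brings a phosphatase to eIF2, TRIB3 binds and restrains ATF4 and AKT, and the products of DDIT4 and SESN2 restrain mTORC1, the kinase complex that drives growth. Because ATF4 is controlled largely at translation, its mRNA level does not give its protein level, and only mRNA was measured here.

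These genes did not move together under BRL-50481. SESN2 and TRIB3 rose by 1.70-fold and 1.68-fold, while CHAC1, ASNS, PPP1R15A, ATF4 and DDIT3 fell, the first 2 to 0.513 and 0.551 of the DMSO level. ATF5, DDIT4 and CEBPB did not pass the test. All fold changes are BRL-50481 over DMSO on log2 of the normalized count, which is the read count divided by a size factor for the library, with 1 added, and all adjusted p-values are limma's with Benjamini-Hochberg adjustment over 15246 genes, called under 0.05. In bulk RNA, fewer cells that express a gene and less of its RNA per cell cannot be told apart.

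In counts, 2 of the 10 genes were called higher, where 28.9% of all tested genes were, and 5 were called lower, where 29.8% of all tested genes were. In either direction 7 of 10 were called, beside 58.7% of all tested genes. The same 7 genes had no overlap between the groups, as did 64.2% of all tested genes (31.9% higher and 32.3% lower). The median log2 fold change of the 10 genes was -0.16, beside 0.015 for all tested genes. The share of genes called was thus near that of the whole table, and the genes are best read one by one.

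**Figure D1:**
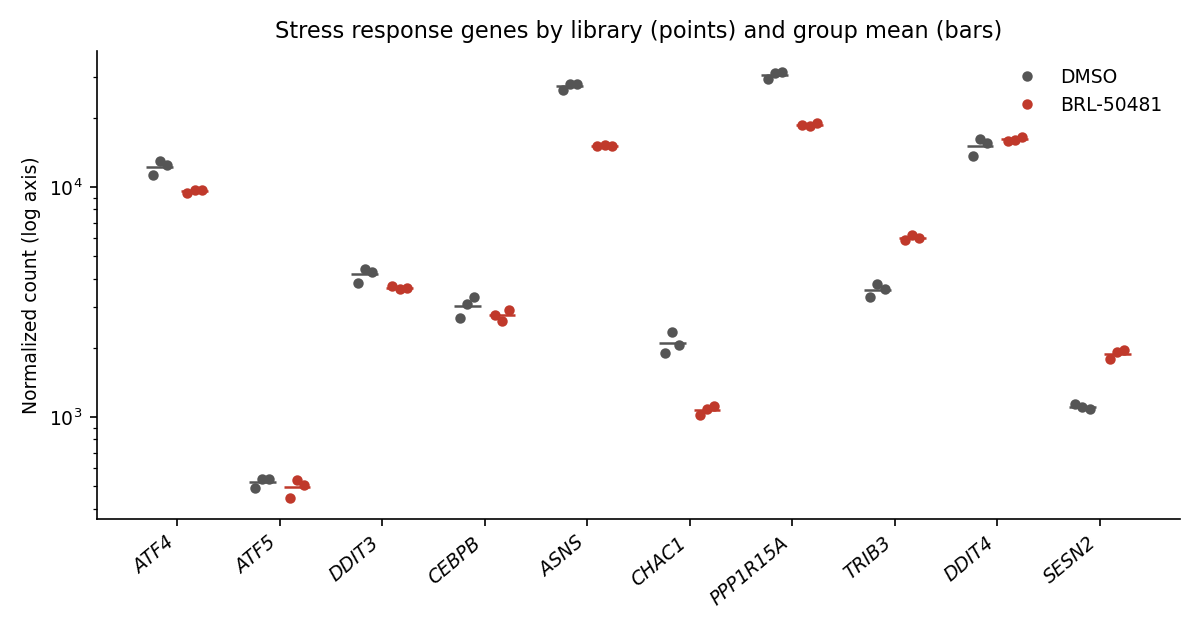
Normalized count (log axis) of each stress response gene in the 3 DMSO (grey) and 3 BRL-50481 (red) libraries, with a bar at the group mean. The BRL-50481 points lie wholly below the DMSO points for ATF4, DDIT3, ASNS, CHAC1 and PPP1R15A and wholly above them for TRIB3 and SESN2, and overlap them for ATF5, CEBPB and DDIT4.

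Promoter sequence was examined because ATF4 and its C/EBP partners recognise a composite element, the C/EBP-ATF response element, whose core is searched here as TGATGNAA. RefSeq windows from 250 bases before to 50 after the start were held for all 10 genes, 18 windows in all, and both strands were searched. The core was found in 2 of the 18 windows (ASNS and CHAC1) and in 3.62% of all 35116 RefSeq windows of the same length. The cAMP response element TGACGTCA, of interest because PDE7A degrades cAMP, was found in 1 of the 18 windows (PPP1R15A) and in 1.85% of all windows. Each of the 3 sites is shown with its neighbouring bases, and capitals mark the motif.

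ASNS, chr7:97872458-97872487, minus strand, GRCh38.p14: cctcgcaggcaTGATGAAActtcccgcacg
CHAC1, chr15:40953251-40953280, plus strand, GRCh38.p14: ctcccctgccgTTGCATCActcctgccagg
PPP1R15A, chr19:48872352-48872381, plus strand, GRCh38.p14: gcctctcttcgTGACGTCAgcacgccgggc

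Distances are counted from the RefSeq start of the window. The ASNS match began 68 bases before that start and the PPP1R15A match 58 bases before it. The CHAC1 match, which reads on the opposite strand, began 209 bases before it. The GENCODE 44 spans of these genes, given below, begin farther upstream, so each site lies inside its gene's span. Whether these sites overlap an annotated exon was not checked. The shorter box CCAAT, which is bound by NF-Y, stood in 7 of the 18 windows (DDIT3, DDIT4, CHAC1, SESN2 and CEBPB) and in 34.6% of all windows. The endoplasmic reticulum stress element, a longer motif which contains CCAAT and is bound by NF-Y with ATF6, was searched as an exact match only. Such a match was found in 0 of the 18 windows and in 0.0769% of all windows. Sequences that differ from the motif in a base were not counted, so elements of that kind may be present. ATF4, ATF5, DDIT3, DDIT4, TRIB3, SESN2 and CEBPB had neither the core nor the cAMP response element in any window. Sequence outside the windows was not searched, so sites farther from the start would be missed. The 250 bases before the start of SESN2 are chr1:28259268-28259517 on the plus strand of GRCh38.p14. They overlap no annotated exon of GENCODE 44 on that strand and are shown with the CCAAT matches (read here as ATTGG) in capitals.

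SESN2 upstream: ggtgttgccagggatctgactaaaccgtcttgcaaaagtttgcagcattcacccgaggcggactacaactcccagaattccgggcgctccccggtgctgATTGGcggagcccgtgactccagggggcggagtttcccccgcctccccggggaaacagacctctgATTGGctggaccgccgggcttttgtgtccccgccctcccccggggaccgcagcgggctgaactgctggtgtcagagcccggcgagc

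These matches describe letters in a window. ATF4 binding was not measured in these samples.

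Of the transcription factors, ATF4 (chr22:39519695-39522683, plus strand), the central activator of the response, was measured at 11316, 12955 and 12507 normalized counts in DMSO and at 9399, 9688 and 9675 in BRL-50481. The groups did not overlap, all treated libraries being lower, and DMSO replicate 1 was the nearest to them. The means were 12259 ± 847 and 9587 ± 163 (SD, n = 3 each), and ATF4 fell by 0.35 on the log2 scale (SE 0.053, 95% interval -0.47 to -0.24, limma adjusted p = 8.41e-05). Leaving out single libraries gave values from -0.41 to -0.31.

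ATF5 (chr19:49928702-49933935, plus strand), a related factor that is also controlled at translation and acts in the mitochondrial stress response, was the scarcest of the 10 genes. The DMSO libraries held 490.2, 536.8 and 538.3 normalized counts and the BRL-50481 libraries 447.0, 531.8 and 506.0. The groups overlapped, and the log2 fold change of -0.08 (SE 0.087, 95% interval -0.27 to 0.11, limma adjusted p = 0.458) did not pass the test. The interval leaves room for a fall of the size seen in DDIT3. An exon of the gene overlaps the miRNA gene MIR4751 on the same strand.

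DDIT3 (chr12:57516588-57521737, minus strand) encodes CHOP, a factor that acts downstream of ATF4 in prolonged stress. In DMSO it stood at 3840, 4412 and 4287 normalized counts, and in BRL-50481 at 3725, 3589 and 3649. The highest BRL-50481 library came within a short distance of DMSO replicate 1, though the groups did not overlap. DDIT3 fell by 0.19 on the log2 scale (SE 0.058, 95% interval -0.32 to -0.07, limma adjusted p = 0.0115), from 4180 ± 301 to 3654 ± 68.1 (SD, n = 3 each). The call was lost without DMSO replicate 3 (log2 fold change -0.17, limma adjusted p = 0.0557), without BRL-50481 replicate 2 (-0.18, limma adjusted p = 0.0533) and under 3 further settings given in the closing section. A protein-coding gene of GENCODE 44, ENSG00000285133, shares exon sequence with DDIT3 on the same strand. Whether the annotation used for counting held it, and how shared reads were counted, were not checked.

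CEBPB (chr20:50190830-50192668, plus strand), a C/EBP factor that can pair with ATF4 and CHOP, had 2690, 3107 and 3329 normalized counts in DMSO and 2793, 2617 and 2917 in BRL-50481. The groups overlapped because DMSO replicate 1 lay inside the BRL-50481 range. The log2 fold change of -0.13 (SE 0.074, 95% interval -0.29 to 0.03, limma adjusted p = 0.153) did not pass the test with all 6 libraries. Without DMSO replicate 1 it was -0.21 (limma adjusted p = 0.000161).

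ASNS and CHAC1, which serve amino acid and glutathione metabolism, showed the deepest falls. ASNS (chr7:97851677-97872542, minus strand) encodes asparagine synthetase, the enzyme that makes asparagine from aspartate and glutamine. It was at 26391, 27925 and 27936 normalized counts in DMSO and at 15034, 15161 and 15119 in BRL-50481. The treated libraries were nearly identical and lay far below every control. ASNS fell by 0.86 on the log2 scale (SE 0.043, 95% interval -0.95 to -0.77, limma adjusted p = 7.1e-09), and the value ranged from -0.89 to -0.85 with each library left out. A long noncoding RNA gene, ENSG00000284707, overlaps ASNS exons on the same strand.

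CHAC1 (chr15:40952962-40956512, plus strand) encodes an enzyme that degrades glutathione and is among the most inducible ATF4 targets. Its DMSO libraries held 1904, 2351 and 2053 normalized counts, and its BRL-50481 libraries 1021, 1081 and 1123. The highest treated library lay far below the lowest control. The means were 2103 ± 228 and 1075 ± 51.5 (SD, n = 3 each), and CHAC1 fell by 0.96 on the log2 scale (SE 0.076, 95% interval -1.13 to -0.80, limma adjusted p = 3.14e-07). Only 3.7% of all tested genes had a lower log2 fold change.

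The feedback regulators of the pathway went opposite ways. PPP1R15A (chr19:48872212-48876059, plus strand), which encodes GADD34, the stress-induced partner that directs protein phosphatase 1 to eIF2, was at 29485, 31391 and 31616 normalized counts in DMSO and at 18631, 18411 and 18944 in BRL-50481. All treated libraries lay well below all controls. PPP1R15A fell by 0.72 on the log2 scale (SE 0.045, 95% interval -0.82 to -0.63, limma adjusted p = 3.76e-08), to 0.606 of its DMSO level.

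TRIB3 (chr20:362835-397559, plus strand) encodes a pseudokinase that is induced by ATF4 and CHOP and in turn holds back their activity. It measured 3334, 3796 and 3618 normalized counts in DMSO and 5858, 6209 and 5989 in BRL-50481. Every treated library exceeded every control. The log2 fold change was 0.75 (SE 0.056, 95% interval 0.63 to 0.87, limma adjusted p = 1.75e-07), and leaving out single libraries gave 0.70 to 0.79.

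Of the mTORC1 inhibitors, SESN2 rose and DDIT4 did not pass the test. SESN2 (chr1:28259518-28282491, plus strand) encodes Sestrin2, a leucine sensor that restrains mTORC1 and is induced by ATF4, p53 and NRF2. It was at 1135, 1105 and 1082 normalized counts in DMSO and at 1795, 1917 and 1953 in BRL-50481. It was also the one gene of the 10 for which DMSO replicate 1 was the highest control. The log2 fold change was 0.77 (SE 0.059, 95% interval 0.64 to 0.90, limma adjusted p = 2.36e-07), and 89.8% of all tested genes had a lower one.

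DDIT4 (chr10:72273919-72276036, plus strand) encodes REDD1, which acts on mTORC1 through the TSC complex and responds to hypoxia and glucocorticoids as well as to ATF4. Its libraries held 13619, 16233 and 15591 normalized counts in DMSO and 15828, 16049 and 16562 in BRL-50481. The groups overlapped, with DMSO replicate 1 below all the others. The log2 fold change of 0.10 (SE 0.060, 95% interval -0.03 to 0.22, limma adjusted p = 0.186) was 0.02 without DMSO replicate 1 and 0.15 without DMSO replicate 2, where it was called higher (limma adjusted p = 0.0403). It was also called higher after quantile normalization (0.18, limma adjusted p = 0.0194) and once corrected for transcript length and GC content (0.18, limma adjusted p = 3.27e-05).

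**Figure D2:**
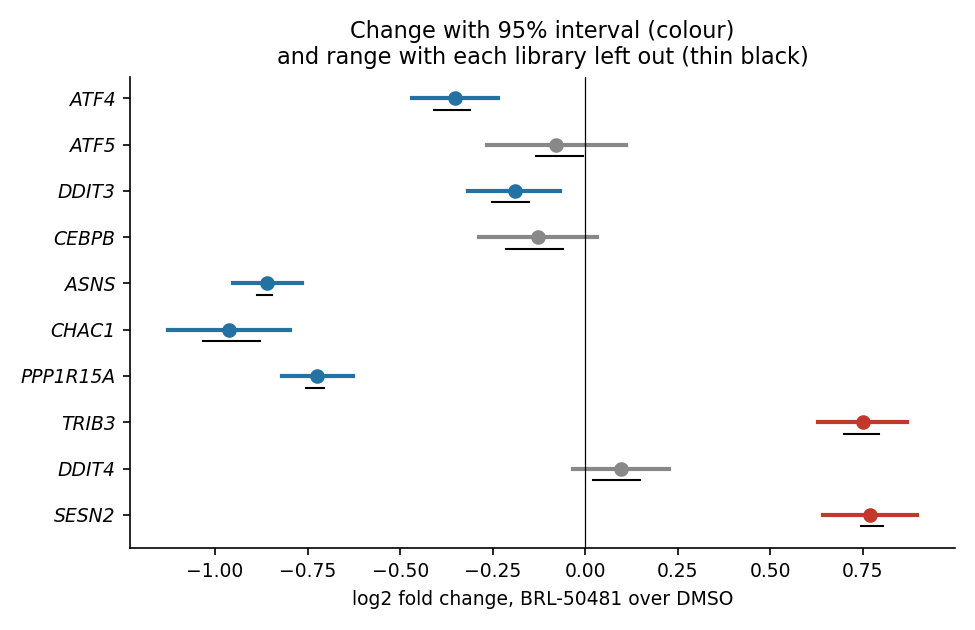
Log2 fold change (BRL-50481 over DMSO) of each gene with its 95% interval (coloured bar, blue for lower, red for higher, grey for not called) and the range when each library was left out (thin black bar). CHAC1 at -0.96, ASNS at -0.86 and PPP1R15A at -0.72 lie at one end and SESN2 at 0.77 and TRIB3 at 0.75 at the other, while the intervals of ATF5, CEBPB and DDIT4 include 0.

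The ratio of each gene to ATF4 within the same library does not depend on the scaling between libraries, and it shows how unequal the changes were. Under DMSO, TRIB3 stood at 0.292 ± 0.00273 of ATF4, and under BRL-50481 at 0.628 ± 0.0116 (SD over 3 libraries, as for the other ratios). For SESN2 the ratio went from 0.0907 ± 0.00834 to 0.197 ± 0.0055. Both ratios thus rose, by 1.10 and 1.12 on the log2 scale.

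ASNS, CHAC1 and PPP1R15A fell relative to ATF4 as well. ASNS was 2.24 ± 0.0885 times ATF4 in DMSO and 1.58 ± 0.0207 times after treatment, which is -0.51 on the log2 scale. CHAC1 went from 0.171 ± 0.00905 to 0.112 ± 0.00378, a difference of -0.61, and PPP1R15A from 2.52 ± 0.0916 to 1.95 ± 0.0421, a difference of -0.37. The mRNA of these targets fell by more than that of ATF4. DDIT3, CEBPB, ATF5 and DDIT4 lay higher relative to ATF4, by 0.16, 0.22, 0.27 and 0.45 on the log2 scale, where ATF4 itself fell by 0.35. DDIT3 fell by less than ATF4, and the other 3 did not pass the test on their own. In none of the 9 ratios did the groups overlap, but ATF4, which divides all of them, did not overlap between the groups either. ATF5, CEBPB and DDIT4 overlapped on their own and separated only as ratios. The share of all genes whose ratio to ATF4 separates the groups was not computed. Each of the 9 ratios gave 0.1 in a two-sided exact permutation test, the smallest p that 3 libraries against 3 allow. This test thus cannot reach 0.05 here.

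**Figure D3:**
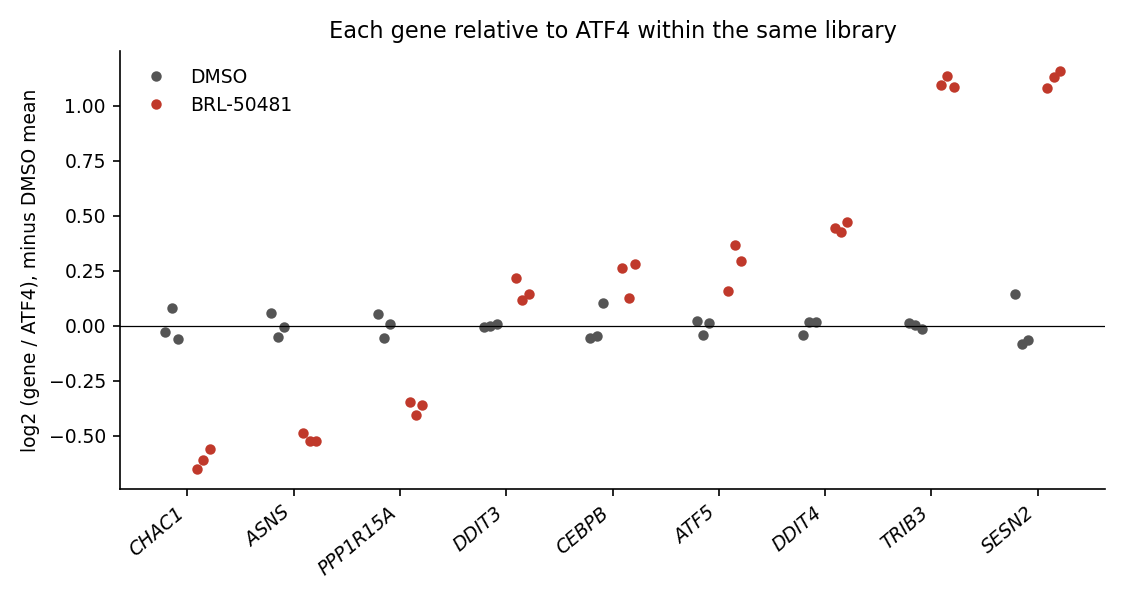
Log2 ratio of each gene to ATF4 in the same library, minus the DMSO mean, for the DMSO (grey) and BRL-50481 (red) libraries, with genes ordered by the difference. CHAC1 (-0.61), ASNS (-0.51) and PPP1R15A (-0.37) lie below the DMSO points, and the other 6 genes lie above them, up to 1.10 for TRIB3 and 1.12 for SESN2.

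Levels per kilobase of the canonical transcript allow the genes to be ordered within a group. In DMSO the order of mean normalized counts per kilobase was PPP1R15A (13119), ASNS (11496), DDIT4 (8685), ATF4 (8639), DDIT3 (4629), CEBPB (1654), TRIB3 (1521), CHAC1 (1383), SESN2 (320) and ATF5 (260). The libraries of DDIT4 and ATF4 overlapped, as did those of CEBPB and TRIB3 and of TRIB3 and CHAC1, so these neighbours cannot be ranked. In BRL-50481 the order became DDIT4 (9258), PPP1R15A (7941), ATF4 (6756), ASNS (6333), DDIT3 (4047), TRIB3 (2555), CEBPB (1509), CHAC1 (707), SESN2 (545) and ATF5 (247), and no neighbours overlapped. PPP1R15A and ASNS gave up the first places to DDIT4, and TRIB3, which could not be ranked against CEBPB in DMSO, lay above it. SESN2 was the second lowest in both groups.

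Among the family relatives of these genes, 1 of 11 measured was called higher and 5 lower (median log2 fold change -0.09). Beside this and each list below, 28.9% of all tested genes were called higher and 29.8% lower. ATF3, a bZIP factor induced by ATF4, fell from 3650 ± 104 to 1794 ± 27.2 normalized counts (log2 fold change -1.02, limma adjusted p = 6.46e-09). CHAC2, the constitutive relative of CHAC1, fell further than CHAC1 (778 to 251 normalized counts, log2 fold change -1.62, limma adjusted p = 1.2e-08), so that the ratio of CHAC1 to CHAC2 went from 2.7 to 4.28. PPP1R15B, which encodes CReP, the constitutive eIF2 phosphatase partner, fell from 5970 to 4384 (-0.45, limma adjusted p = 9.29e-06), less than PPP1R15A, and the ratio of the pair went from 5.18 to 4.26. The groups of neither ratio overlapped.

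TRIB2 rose from 2046 to 2595 normalized counts (log2 fold change 0.34, limma adjusted p = 0.000182), and TRIB1 was at 1343 and 1263 (-0.09, limma adjusted p = 0.212). TRIB3 gained on both, from 1.75 to 2.32 times TRIB2 and from 2.67 to 4.77 times TRIB1. Of the other sestrins, SESN1 was at 159 and 150 (-0.09, limma adjusted p = 0.565), while SESN3 was called lower at 351 and 269 (-0.36, limma adjusted p = 0.0344). The SESN3 groups overlapped, and the call was lost without DMSO replicate 1 (limma adjusted p = 0.0843), DMSO replicate 3 (limma adjusted p = 0.0848), BRL-50481 replicate 2 (limma adjusted p = 0.133) or BRL-50481 replicate 3 (limma adjusted p = 0.0851). The SESN3 call was also lost in limma without a trend (limma adjusted p = 0.117). The rise of SESN2 was thus not matched by a called rise in either relative.

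In the C/EBP family, the ATF4 partner CEBPG averaged 6553 normalized counts under DMSO and 6829 under BRL-50481 (log2 fold change 0.06, limma adjusted p = 0.323). CEBPD was at 409 and 468 (0.21, limma adjusted p = 0.151) and was called higher without DMSO replicate 3 (0.35, limma adjusted p = 0.0189). It was also called higher after the length and GC correction (0.335, limma adjusted p = 0.00386). CEBPA was scarce and fell from 22.2 to 7.97 (-1.34, limma adjusted p = 0.00948), a call lost without DMSO replicate 2 (limma adjusted p = 0.0559). DDIT4L, the relative of DDIT4, was at 82.5 and 90.6 (0.15, limma adjusted p = 0.506). CEBPE was not listed in the table.

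Upstream of ATF4, 7 of the 21 genes for eIF2 kinases, eIF2, its exchange factor eIF2B and the associated phosphatases were called higher and 9 lower (median log2 fold change -0.03). Over all tested genes the shares were 28.9% and 29.8%. EIF2AK4, which encodes the amino acid sensor GCN2, rose from 2812 to 3374 normalized counts (log2 fold change 0.27, limma adjusted p = 0.00287). EIF2AK1, which encodes the haem-regulated kinase HRI, rose from 3808 to 4260 (0.16, limma adjusted p = 0.00846). EIF2AK3, which encodes PERK, the kinase of the endoplasmic reticulum, was at 968 and 958 (-0.01, limma adjusted p = 0.878). EIF2AK2, which encodes the double-stranded RNA sensor PKR, was called higher at 1574 and 1855 (0.24, limma adjusted p = 0.0233), but the groups overlapped. The call was lost without DMSO replicate 2 (limma adjusted p = 0.0898), DMSO replicate 3 (limma adjusted p = 0.0583), BRL-50481 replicate 1 (limma adjusted p = 0.0868) or BRL-50481 replicate 3 (limma adjusted p = 0.0732). It was also lost in limma without a trend (limma adjusted p = 0.109) and after the length and GC correction (log2 fold change 0.06, limma adjusted p = 0.213).

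IMPACT, an inhibitor of GCN2, rose from 745 to 1177 normalized counts (log2 fold change 0.67, limma adjusted p = 1.49e-05). The subunit genes EIF2S1, for eIF2 alpha, and EIF2B4, for eIF2B delta, fell by 0.53 (limma adjusted p = 1.44e-06) and 0.65 (limma adjusted p = 6.18e-06) on the log2 scale. Kinase activity and eIF2 phosphorylation were not measured in these libraries.

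Other ATF4 targets were read in lists by function. Of 11 amino acid synthesis genes measured, 3 were called higher and 5 lower (median log2 fold change -0.09). The shares over all tested genes were 28.9% and 29.8%. PSAT1, of serine synthesis, fell by 0.79 (limma adjusted p = 1.12e-08), ALDH18A1, of proline synthesis, by 0.72 (limma adjusted p = 6.65e-08), and CTH, which makes cysteine from cystathionine, by 0.59 (limma adjusted p = 3.52e-07) on the log2 scale. Of 10 amino acid transporter genes, 0 were called higher by limma and 7 lower (median -0.25), where all tested genes gave 28.9% and 29.8%. SLC3A2, the shared heavy chain of several exchangers, fell by 0.74 (limma adjusted p = 2.27e-07), the glutamine carrier SLC1A5 by 0.68 (limma adjusted p = 8.24e-08) and SLC43A1 by 0.42 (limma adjusted p = 6.39e-05). The cystine carrier SLC7A11, named after its values were seen, was at 5600 and 6056 normalized counts (limma adjusted p = 0.265) and was called higher without DMSO replicate 1 (log2 fold change 0.27, limma adjusted p = 2.76e-07).

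The 13 genes for aminoacyl-tRNA synthetases and the tRNA exporter exportin-T were split, with 6 called higher and 5 lower (median log2 fold change 0.02). Over all tested genes the calls were 28.9% higher and 29.8% lower. CARS rose by 0.42 (limma adjusted p = 3.88e-06) and XPOT by 0.34 (limma adjusted p = 6.87e-05), while NARS fell by 0.39 (limma adjusted p = 6.48e-06) on the log2 scale. After quantile normalization 3 of the 13 were called lower.

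Among 18 other targets of ATF4 or CHOP, 2 were called higher and 11 lower (median log2 fold change -0.43). All tested genes gave 28.9% higher and 29.8% lower. HMOX1, the haem-degrading enzyme, fell by 1.40 (limma adjusted p = 2.28e-08), GADD45A, a growth arrest gene, by 0.91 (limma adjusted p = 6.47e-08) and NUPR1, a stress-induced chromatin protein, by 0.81 (limma adjusted p = 8.03e-07) on the log2 scale. The count of higher calls was 1 without DMSO replicate 3, without any one of the BRL-50481 libraries or in limma without a trend. It was 3 with median centring, a filter at a mean of 20 or a replicate block, and without DMSO replicate 1.

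Lists of other stress pathways, some of which share targets with ATF4, were read in the same fit. Of 17 genes driven by ATF6 and XBP1, the other arms of the endoplasmic reticulum response, 15 were called lower and 1, ATF6 itself, higher (median log2 fold change -0.35). Lower calls made up 29.8% of all tested genes and higher calls 28.9%. The lower count of the list ranged from 13 to 16 over 15 alternative settings. After quantile normalization it was 13, with CALR at 0.025 and CANX at 0.049 on the log2 scale, neither of them called. SDF2L1 fell by 1.00 (limma adjusted p = 7.35e-06), MANF by 0.87 (limma adjusted p = 1.42e-07) and DNAJB11 by 0.57 (limma adjusted p = 2.1e-06) on the log2 scale, all 3 of them coding for proteins that act in folding or in the stress reply of the endoplasmic reticulum.

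Of 17 p53 targets, 6 were called lower and 1 higher (median log2 fold change -0.08), where all tested genes gave 29.8% and 28.9%. AEN fell by 1.15 (limma adjusted p = 4.29e-09), TIGAR by 1.10 (limma adjusted p = 2.36e-07) and ZMAT3 by 1.07 (limma adjusted p = 2.7e-08) on the log2 scale. MDA-MB-231 carries mutant p53, so these genes are named here for what they respond to elsewhere. The lower count was 4 without DMSO replicate 2 or BRL-50481 replicate 1 and the higher count 2 without DMSO replicate 2 or DMSO replicate 3. The higher count was also 2 with a replicate block, 3 with median centring or a filter at a mean of 20, and 4 after the length and GC correction.

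The 14 hypoxia targets had the highest median of the lists, 0.20, with 7 called higher and 1 lower. Shares over all tested genes were 28.9% and 29.8%. NDRG1 rose by 0.61 (limma adjusted p = 1.08e-07) and EGLN3, an oxygen sensor, by 0.52 (limma adjusted p = 0.000177), while ADM, which encodes the vasodilator peptide adrenomedullin, fell by 0.81 (limma adjusted p = 7.74e-07) on the log2 scale. DDIT4, which also responds to hypoxia, was not called, as stated above.

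Of 17 immediate-early genes, 11 were called lower and 2 higher (median log2 fold change -0.37), where all tested genes gave 29.8% and 28.9%. FOSB fell by 2.82 (limma adjusted p = 1.64e-09), FOS by 1.44 (limma adjusted p = 2.57e-07) and DUSP1 by 1.26 (limma adjusted p = 3.85e-09) on the log2 scale. The higher count was 1 without BRL-50481 replicate 3 or in limma without a trend, and 4 after the length and GC correction. ATF3 stands in this list as well as among the family relatives, and PPP1R15B, GDF15, BBC3, SESN1 and VEGFA also stand in a pair of lists each. No list was tested as a set, so the counts and medians describe the lists beside the whole table (28.9% higher, 29.8% lower, median 0.015).

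**Figure D4:**
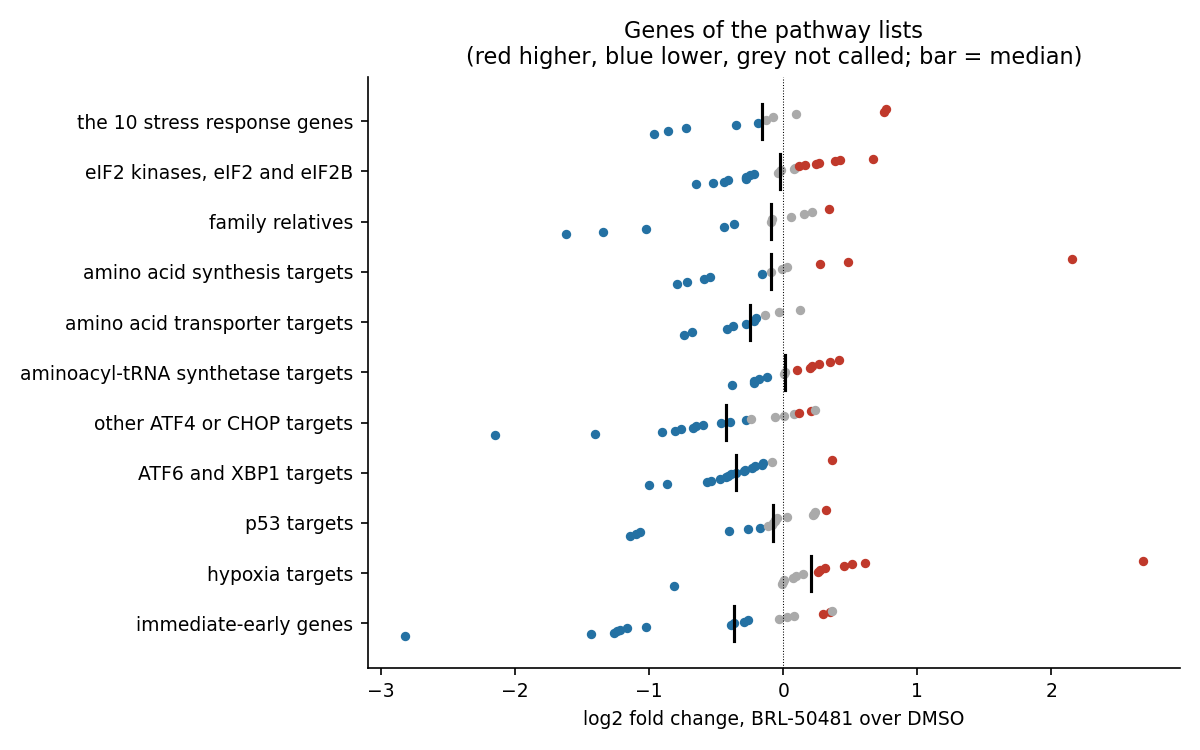
Log2 fold change (BRL-50481 over DMSO) of every measured gene of each list, red for called higher, blue for called lower and grey for not called, with a black bar at the median. The medians run from -0.43 for other ATF4 or CHOP targets to 0.20 for hypoxia targets, and the points farthest out, noted after their values were seen, are FOSB (-2.82), FGF21 (-2.15), ALDH1L2 (2.15) and CA9 (2.68), the last 3 of them scarce in DMSO at 11.3, 10.7 and 19.3 normalized counts.

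Finally, the genes most like a stress response gene across the 6 libraries were sought among the 11455 genes that averaged at least 100 normalized counts, by the root mean square difference of the centred log2 values. Nearest to ATF4 were RPS4X (0.0159), DAD1 (0.0172) and RPL7A (0.0175), of which RPS4X and RPL7A encode ribosomal proteins and DAD1 a subunit of the complex that attaches N-glycans. Nearest to SESN2 were ADGRG1 (0.0184), TCF25 (0.0257) and PLXNA1 (0.0266), and nearest to CHAC1 were BOP1 (0.0381), LOC93622 (0.0392) and SSR4 (0.0454). With 6 libraries in a pair of groups, the measure reflects mainly a like difference between the groups.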

How the data were processed

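Per the labels and the methods, the authors aligned reads to hg38 with STAR 2.7.1a, counted them per gene on the reverse strand with HTSeq and scaled them with DESeq2 1.28. The signal that the authors deposited is the gene count divided by the DESeq2 size factor of the library. The labels describe oligo-dT selection and the series record ribosomal RNA depletion. The deposited comparison columns (mean, fold change and p-values) were not used.

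Genes were kept if 3 or more libraries held 4 or more normalized counts (15246 of 15651). Log2 values with 1 added were fitted with limma 3.58.1 in R 4.3.3 (lmFit, eBayes with a trend), with the group as the only term, and called at an adjusted p under 0.05. Each library's values were whole multiples of 1 read (100%, tolerance 0.001), which gave the read totals. Transcript length, GC content and positions came from GENCODE 44 (96.5% of genes matched), and promoters from RefSeq, GRCh38.p14. Besides the 10 genes, all family relatives, the 4 eIF2 kinases, PDE7A and the 3 largest called changes of each other list with a mean of at least 100 are named. The genes and lists were chosen with earlier results of these data known. On simulated data, 100% of log2 changes of 1 and 95% of 0.5 were called (100 genes each, 15102 tested). The simulation gave all genes and libraries the same dispersion and changed only genes with a mean of at least 100. The real DMSO libraries varied more than the BRL-50481 libraries, so these rates do not give the power for the real data. The alternatives were other pseudocounts (0.5 and 4), another filter (none, or a mean of 20), another scaling (quantile normalization or median centring), no trend in limma, a replicate block, a length and GC correction (loess, span 0.5) and the omission of each library.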

Additional observations from a re-analysis of the deposited data

How the results depend on the processing

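Of 150 recomputed log2 fold changes of the 10 genes under 15 alternatives, 141 stayed on their side of the threshold and 0 reversed. ATF4, ASNS, CHAC1, PPP1R15A, TRIB3 and SESN2 stayed called in all 15. DDIT3 lost its call after quantile normalization (log2 fold change -0.14, limma adjusted p = 0.0569), in limma without a trend (-0.19, limma adjusted p = 0.0579) and after the length and GC correction (-0.05, limma adjusted p = 0.175), and without DMSO replicate 3 or BRL-50481 replicate 2. DDIT4 gained a call after quantile normalization, the length and GC correction and without DMSO replicate 2, and CEBPB without DMSO replicate 1. The cause was not tested. The 10 genes called higher numbered 2 to 3 and lower 4 to 6, also when each library was left out, where all genes called higher ranged from 3751 to 4876 and lower from 4027 to 4933. Of 300 recomputed list counts, 281 stayed within 1.5 times. The median log2 fold change of all tested genes was 0.002 after quantile normalization and 0.045 after median centring. No alternative of any kind moved it outside -0.004 to 0.045. Deviations of libraries with the same replicate number correlated at 0.121, 0.104 and 0.0514 over 12251 genes. Those of libraries with different numbers correlated at -0.159 to 0.0607. These values do not settle whether the samples were paired, and the main fit did not pair them. With the replicate number as a block, 4440 genes were called higher and 4589 lower, of the 10 genes 2 and 5. The planned edgeR and DESeq2 alternatives were not run.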
